A study of Homo sapiens with 4 samples.

Results

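Interferon receptors, the Janus kinases (JAKs) and STAT factors behind them, and the interferon regulatory factors (IRFs) were examined in FLO-1LM, a metastatic subline of the FLO-1 cell line, and in the parental FLO-1 cells. The group was defined by name and holds 9 genes, *IFNAR1*, *IFNAR2*, *IFNGR1*, *JAK1*, *TYK2*, *STAT2*, *IRF1*, *IRF3* and *IRF7*, of the 63677 genes in the count files. FLO-1 is a human esophageal adenocarcinoma cell line. FLO-1LM was grown out of liver metastases that FLO-1 cells formed in NSG mice, a strain without T, B or natural killer cells, and it is a single subline with no genetic change introduced by design. RNA of both cultured lines was sequenced in 4 libraries, 2 of FLO-1LM and 2 of FLO-1 parental cells, and the labels name no treatment with interferon or any other agent. No label states that libraries of one line were prepared from different cultures, so the p-values measure only the spread between these libraries, which may be technical.

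Interferons act through paired receptor chains. IFNAR1 and IFNAR2 together bind the type I interferons, and IFNGR1 with IFNGR2 binds interferon gamma. TYK2 and JAK1 sit on the cytoplasmic tails of the type I receptor and phosphorylate STAT factors. STAT2 is one of them and joins IRF9 in the factor ISGF3. This factor binds interferon-stimulated response elements (ISREs) in front of antiviral genes, while interferon gamma acts through gamma-activated sites (GASs), one of which lies in front of *IRF1*. IRF3 and IRF7 act upstream of the ligands, where they switch on interferon genes once a cell has sensed foreign nucleic acid, and IRF7 is itself induced by interferon.

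The libraries held 19060310 to 25920336 counts in genes. Between the 2 libraries of a line, counts differed by more than sampling noise (chi-square per degree of freedom 9.6 for FLO-1LM and 4.55 for parental), so all 4 were kept as separate samples. *EPCAM*, a defining surface marker of epithelium, had only 3 to 12 counts per library, while the keratin genes *KRT8*, *KRT18* and *KRT19* were read in all 4 and were lower in FLO-1LM. *KRT7* of the same list lay the other way, at 6.37 and 6.05 CPM in FLO-1LM against 3.08 and 4.9 CPM, and did not pass the cut-off (edgeR adjusted p = 0.303). The 5 listed epithelial markers summed to 485 and 468 CPM in FLO-1LM and to 761 and 779 CPM in parental cells, and mitochondrially encoded genes took 9.57 to 9.96% of counts in FLO-1LM and 7.93 to 8.31% in parental libraries. Leaving out the mitochondrial genes changed no call among the 9 genes or the other pathway genes, and the part of the epithelial markers was not tested. Of the leukocyte markers, *PTPRC* was at 0 counts in all 4 libraries and the 5 listed genes summed to 0.544 to 0.942 CPM (counts per 1000000 of the library total after TMM scaling). Of the 4 hepatocyte markers, *ALB* and *TTR* were at 0 as well, *APOA1* had 1 to 7 counts per library, and *SERPINA1* was read at 14.8 and 13.2 CPM in FLO-1LM and at 18.0 and 16.3 CPM in parental cells. The 6 fibroblast and endothelial markers summed to 10.1 to 12.9 CPM, with *DCN* at 0. Levels in RNA of whole cultures cannot tell fewer expressing cells from less RNA per cell.

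None of the 9 genes passed the test of a difference between the lines. In edgeR's quasi-likelihood fit, with p-values adjusted by Benjamini-Hochberg over 17143 tested genes, 0 of 9 passed the adjusted p cut-off of 0.05, against 2.23% of all tested genes, of which 1.83% were lower and 0.402% higher in FLO-1LM. DESeq2 and limma voom also passed 0 of 9, and 1 of 9 (*IRF7*) had an unadjusted p below 0.05, against 12.4% of tested genes. The summed level of the 9 genes was 1142 and 1137 CPM in FLO-1LM and 1153 and 1134 CPM in parental cells. Their median absolute log2 fold change was 0.06, against 0.14 over all tested genes. The 9 genes stood at percentiles 68.8 to 97.7 of level among tested genes. Fold changes of genes with few counts are noisier, so these medians do not compare genes of like level. The 95% intervals reached 0.15 to 0.24 to either side of the fold change on the log2 scale, and for 8 of 9 genes the whole interval lay within 0.5, which is 1.41-fold either way. With 2 libraries per line, changes smaller than these unadjusted intervals were not detectable, and larger ones can be missed too. *IRF7* at 0.30 did not pass after adjustment. On simulated counts, with changed genes drawn at random from all tested genes, the fit recovered 50.0% of genes changed by 0.5. That rate is an average over all levels and is not the rate for genes at the levels of these 9.

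**Figure D1:**
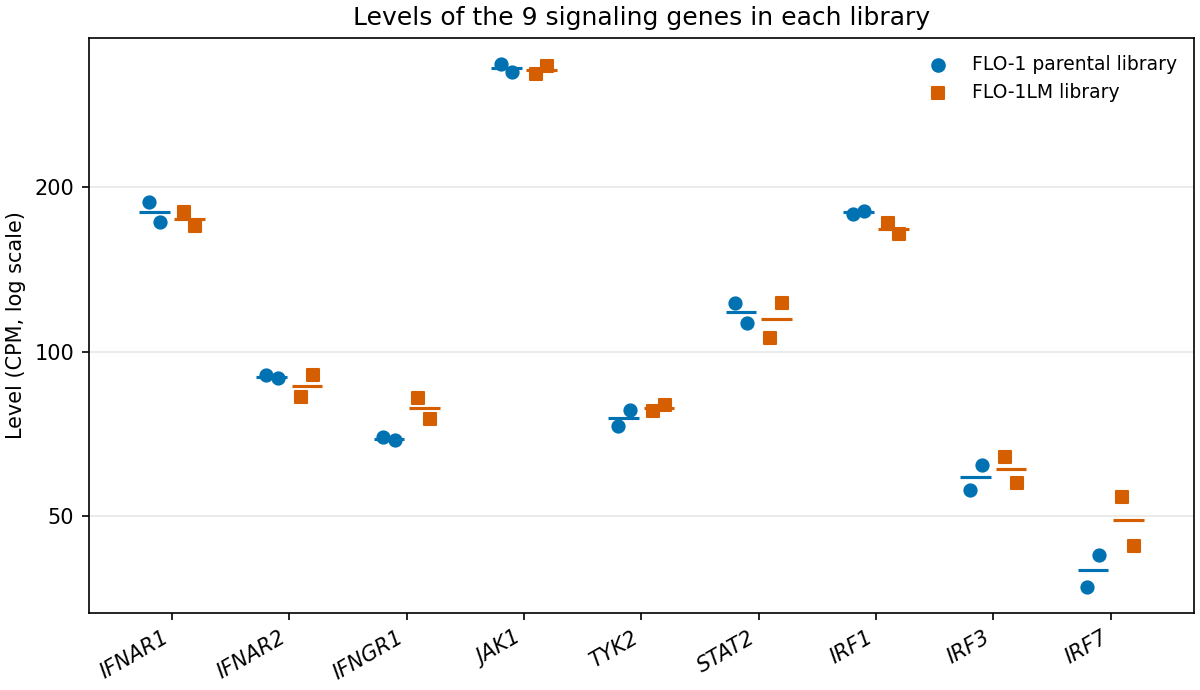
Levels of the 9 genes in CPM on a log axis, with 2 FLO-1 parental libraries (circles) and 2 FLO-1LM libraries (squares) per gene and a bar at the mean of each line. *JAK1* has the highest level at 323 to 337 CPM and *IRF7* the lowest at 37 to 54.1 CPM, without correction for transcript length. The lines are apart only for *IFNGR1*, *IRF1* and *IRF7*.

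Both chains of the type I interferon receptor are encoded on the same stretch of chromosome 21. *IFNAR1* (ENSG00000142166, GRCh37 chr21:34697275-34732170, plus strand) was at 180 and 170 CPM in FLO-1LM and at 188 and 173 CPM in parental cells. The lines overlapped, the log2 fold change being −0.046 (standard error 0.078, 95% interval −0.21 to 0.12, edgeR adjusted p = 0.886). *IFNAR2*, the chain with the higher affinity for the ligand (ENSG00000159110, chr21:34602243-34637969, plus strand), was at 82.5 and 90.4 CPM in FLO-1LM and at 90.4 and 89.5 CPM in parental cells. Its lines overlapped too, at −0.057 (standard error 0.084, 95% interval −0.23 to 0.12, edgeR adjusted p = 0.868). The ratio of *IFNAR1* to *IFNAR2* counts was 2.19 and 1.88 in FLO-1LM and 2.08 and 1.93 in parental libraries, and the ranges of the lines overlapped. *IFNAR2* shares 13.0% of its annotated exon bases with the opposite-strand transcript *IL10RB-DT*, which had 27 to 68 counts per library. Whether the counting used strand is not stated. The readthrough gene *IFNAR2-IL10RB* shares 14.7% of the exon bases on the same strand and had 0 counts in every library. The 1717 to 2330 counts per library of *IFNAR2* may lack reads from these shared exons.

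*IFNGR1*, the ligand-binding chain for interferon gamma (ENSG00000027697, chr6:137518622-137540522, minus strand), was at 82.1 and 75.2 CPM in FLO-1LM and at 69.6 and 68.8 CPM in parental cells. Both FLO-1LM libraries lay above both parental libraries. The fold change was 1.14 with a 95% interval of 1.00 to 1.29 (log2 0.18, standard error 0.087), which did not pass the test (unadjusted p = 0.0505, adjusted p = 0.406 by edgeR). Of the 9 genes, 3 had lines that did not overlap, against 42.6% of all tested genes. The partner chain *IFNGR2* was higher than *IFNGR1* in every library, at 218 and 208 CPM in FLO-1LM and 216 and 209 CPM in parental cells (fold change 1.00 with a 95% interval of 0.90 to 1.11). The 3 receptor chains outside the group, *IFNGR2*, *IFNLR1* and *IL10RB*, gave 0 genes past the cut-off by edgeR, DESeq2 or limma voom, and 0 with an unadjusted p below 0.05.

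Neither kinase separated the lines. *JAK1*, shared by the type I, type II and type III interferon receptors (ENSG00000162434, chr1:65298912-65432232, minus strand), was at 323 and 334 CPM in FLO-1LM and at 337 and 326 CPM in parental cells. With the lines overlapping, its log2 fold change was −0.014 (standard error 0.071, 95% interval −0.16 to 0.13, edgeR adjusted p = 0.968). *TYK2*, which binds the IFNAR1 chain (ENSG00000105397, chr19:10461209-10491248, minus strand), was at 77.9 and 79.8 CPM in FLO-1LM and at 73.0 and 78.0 CPM in parental cells. One FLO-1LM library fell between the parental libraries, and the log2 fold change was 0.063 (standard error 0.085, 95% interval −0.12 to 0.24, edgeR adjusted p = 0.85). *JAK1* had 4.14 and 4.19 times the counts of *TYK2* in FLO-1LM and 4.62 and 4.18 times in parental libraries, again overlapping. *JAK2*, which serves the interferon gamma receptor beside JAK1, was at 24.7 and 28.1 CPM in FLO-1LM and at 26.4 and 26.3 CPM in parental cells, overlapping at a fold of 1.00 with a 95% interval of 0.84 to 1.20.

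*STAT2*, the STAT that is particular to ISGF3 (ENSG00000170581, chr12:56735381-56753891, minus strand), was at 106 and 123 CPM in FLO-1LM and at 123 and 113 CPM in parental cells. The lines overlapped, and the log2 fold change was −0.042 (standard error 0.087, 95% interval −0.22 to 0.14, edgeR adjusted p = 0.91). Its partner in ISGF3, *IRF9*, had 58 and 67 counts in FLO-1LM and 52 and 56 in parental libraries, or 2.36 to 2.92 CPM. *IRF9* shares 1544 exon bases on the same strand with an overlapping gene, ENSG00000259529, and its counts are uncertain because reads in shared exons may have gone to neither gene or to the other. Of the 7 tested JAKs and STATs outside the group, 0 passed the cut-off by edgeR, DESeq2 or limma voom and 0 had an unadjusted p below 0.05, with a median log2 fold change of 0.00. *STAT4* was at 0 counts in all 4 libraries.

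*IRF1*, an activator of antigen presentation and other interferon gamma targets (ENSG00000125347, chr5:131817301-131826465, minus strand), was at 172 and 164 CPM in FLO-1LM and at 179 and 181 CPM in parental cells. Both FLO-1LM libraries were lower, by a log2 fold change of −0.10 (standard error 0.074, 95% interval −0.26 to 0.06), which did not pass the test (edgeR adjusted p = 0.658). *IRF1-AS1*, on the opposite strand, overlaps 22.9% of its exon bases and had 117 to 186 counts per library against 3479 to 4224 for *IRF1*. Promoter windows from RefSeq on GRCh38.p14, from 250 bases before to 50 bases after each gene start, were searched on both strands for the ISRE core GAAANNGAAA and the GAS core TTCNNNGAA, where N is any base. Over all 35116 windows, 3.57% held the ISRE core and 7.66% the GAS core. Of the 9 genes, 6 had an entry, and 0 of these held the ISRE core and 1, *IRF1*, the GAS core. It lies 124 bases before the start at chr5:132490889-132490897 of GRCh38.p14. The stretch is shown because *IRF1* stands both among the signaling genes and among the targets of interferon gamma, on the minus strand with the core in capitals.
IRF1: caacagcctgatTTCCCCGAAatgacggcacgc
A match describes the letters in the window and is not a measured binding site.

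*IRF3*, present in most cells before any stimulus (ENSG00000126456, chr19:50162829-50169114, minus strand), was at 64.1 and 57.4 CPM in FLO-1LM and at 55.7 and 61.8 CPM in parental cells. The lines overlapped, at a log2 change of 0.048 (standard error 0.096, 95% interval −0.15 to 0.25, edgeR adjusted p = 0.907). *BCL2L12* overlaps 19.3% of its exon bases on the opposite strand with 495 to 707 counts per library. If strand was not used in counting, part of either gene's reads could belong to the other.

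*IRF7* had the largest difference of the 9 genes (ENSG00000185507, chr11:612555-615950, minus strand). Its level was 54.1 and 43.9 CPM in FLO-1LM and 37 and 42.4 CPM in parental cells. The lines did not overlap, but the lower FLO-1LM library was close to the higher parental one. The fold change of 1.23 (log2 0.30, standard error 0.11, 95% interval of the fold 1.05 to 1.46) had an unadjusted p of 0.0157 and an adjusted p of 0.244 by edgeR. It stood at place 1102 of 17143 when genes were ordered by p. Over the 4 fits that each left out a library the log2 fold change ranged from 0.15 to 0.45, and it was highest without FLO-1LM replicate 2. The ratio of *IRF7* to *IRF3* counts was 0.844 and 0.766 in FLO-1LM and 0.665 and 0.685 in parental libraries. The ratio of *IRF7* to *IRF1* counts was 0.314 and 0.268 in FLO-1LM and 0.207 and 0.234 in parental libraries. Both ratios were higher in each FLO-1LM library than in either parental one. They use the same *IRF7* counts, and *IRF1* was lower in both FLO-1LM libraries, so the ratios restate these levels and add no separate evidence.

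The protein-coding genes outside the lists whose levels over the 4 libraries were most like those of *IRF7* were *DBNDD1* and *DENND1C*, at distances of 0.028 and 0.052 between centred log2 CPM among 12436 genes compared. This likeness is a description over 4 libraries only.

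**Figure D2:**
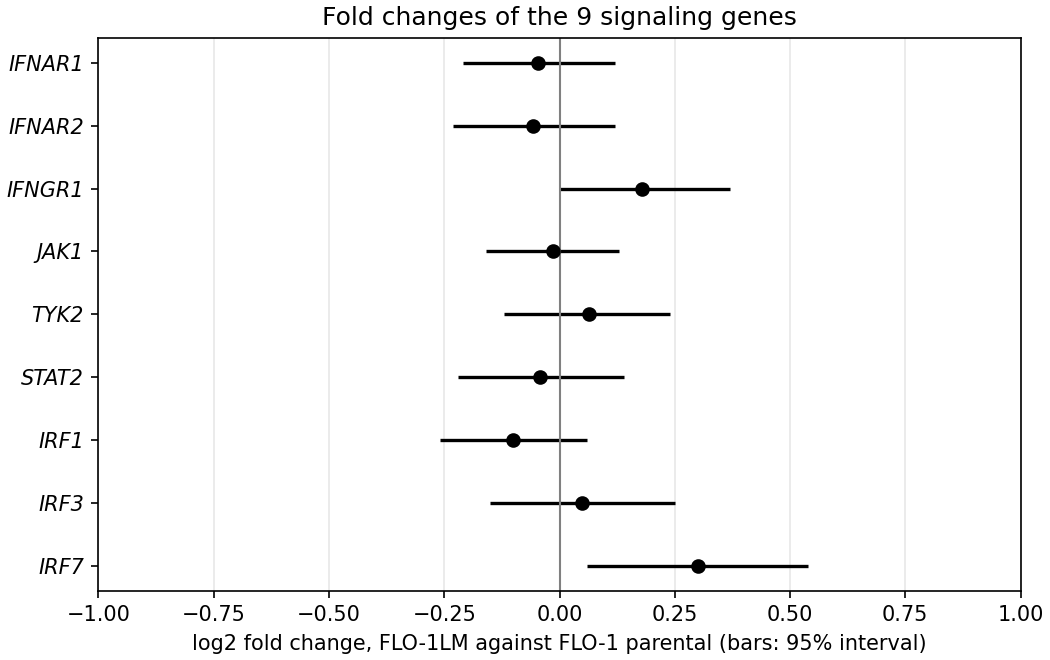
Log2 fold changes of the 9 genes, FLO-1LM against FLO-1 parental, with 95% intervals from edgeR as bars. All points lie between −0.10 and 0.30, and only the interval of *IRF7* (0.06 to 0.54) is clear of 0 before adjustment for the 17143 genes tested.

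Of the 6 other IRFs, 0 passed the cut-off by edgeR, DESeq2 or limma voom and 1, *IRF2*, had an unadjusted p below 0.05. *IRF2*, which competes with IRF1 for the same sites, was at 32.4 and 24.8 CPM in FLO-1LM and at 35.6 and 34.1 CPM in parental cells. Its log2 fold change of −0.29 (standard error 0.13) had an edgeR adjusted p of 0.353. It was −0.49 without FLO-1LM replicate 1 and −0.11 without FLO-1LM replicate 2.

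Divided by the length of the Ensembl canonical transcript, the levels of the 9 genes ran from 64.8 CPM per kilobase for *JAK1* (63.4 to 66.2 over the 4 libraries) to 18.2 for *TYK2* (17.2 to 18.8). *IRF1* came after *JAK1*, at 49.0 CPM per kilobase (46.1 to 51.0), and was clear of both its neighbours. *IRF3* (34.9 to 40.2) and *IFNGR1* (33.2 to 39.6) overlapped each other, and *IFNAR1* (27.9 to 31.0) was next to *STAT2* (24.2 to 27.9) with almost no gap. *IRF7* (19.3 to 28.1) overlapped both *STAT2* and *IFNAR2* (20.2 to 22.2), and *IFNAR2* was clear of *TYK2*. With all annotated exons as the length, *JAK1* was still first, but *IRF7* moved from place 7 to 3 and *IRF1* from place 2 to 5, and *IFNAR2* fell below *TYK2* to the last place, so the order after *JAK1* depends on the transcript assumed. On the canonical scale *IRF9* was at 1.61 CPM per kilobase and its partner *STAT2* at 26.4. The *IRF9* level may be too low, because reads in the exons it shares with ENSG00000259529 may not have been counted for it.

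Among the ligands, 6 of 10 listed genes (*IFNA1*, *IFNA2*, *IFNE*, *IFNK*, *IFNW1* and *IFNG*) were at 0 counts in all 4 libraries, and a count of 0 allows up to 3 counts per library. *IFNB1* had 9 and 0 counts in FLO-1LM and 0 and 4 in parental libraries. The type III genes were read in both lines. *IFNL1* was at 9.78 and 6.17 CPM in FLO-1LM and at 10.8 and 10.6 CPM in parental cells, a difference of −0.43 on the log2 scale (standard error 0.21, edgeR adjusted p = 0.43). *IFNL2* and *IFNL3*, near-identical copies whose reads may be split between them, were at −0.32 and −0.47. All 3 had both FLO-1LM libraries below both parental ones. Over all tested genes, the lines were apart, one way or the other, in 42.6%, and *IFNL2* and *IFNL3* do not count as separate observations. Of the 3, 0 passed the cut-off by edgeR, DESeq2 or limma voom, and *IFNL3* had an unadjusted p of 0.0244 (edgeR adjusted p = 0.301). *IFNL3* was at 14.4 and 9.2 CPM in FLO-1LM and at 17.2 and 15.2 CPM in parental cells. For *IFNL1* and *IFNL3*, FLO-1LM replicate 1 lay nearer the parental libraries than FLO-1LM replicate 2 did. Without FLO-1LM replicate 1, the log2 fold change was −0.80 for *IFNL1* and −0.82 for *IFNL3*, so the size of both falls rests largely on FLO-1LM replicate 2.

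Some listed regulators, sensors and targets outside the 9 genes passed the cut-off. With 2.23% of all tested genes past it, 0 of 9 does not set the 9 genes apart from these. Of 97 other pathway genes listed, 84 were tested, and 11 were lower and 0 higher in FLO-1LM by edgeR, against 1.83% and 0.402% of all tested genes. The lists were chosen with earlier results of these data known, so these counts describe the listed genes and are no test of the lists. DESeq2 gave 9 lower and 0 higher, limma voom 11 lower and 0 higher, and 28 had an unadjusted p below 0.05, against 12.4% of all tested genes. The median log2 fold change of the 84 was −0.07, against −0.01 for the 9 genes and 0.0016 over all tested genes. The count of 11 moved with each library. It fell when either parental library was left out and rose when either FLO-1LM library was left out. The count of lower genes over all tested genes moved the same way, so this shift is not particular to the pathway genes.

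**Figure D3:**
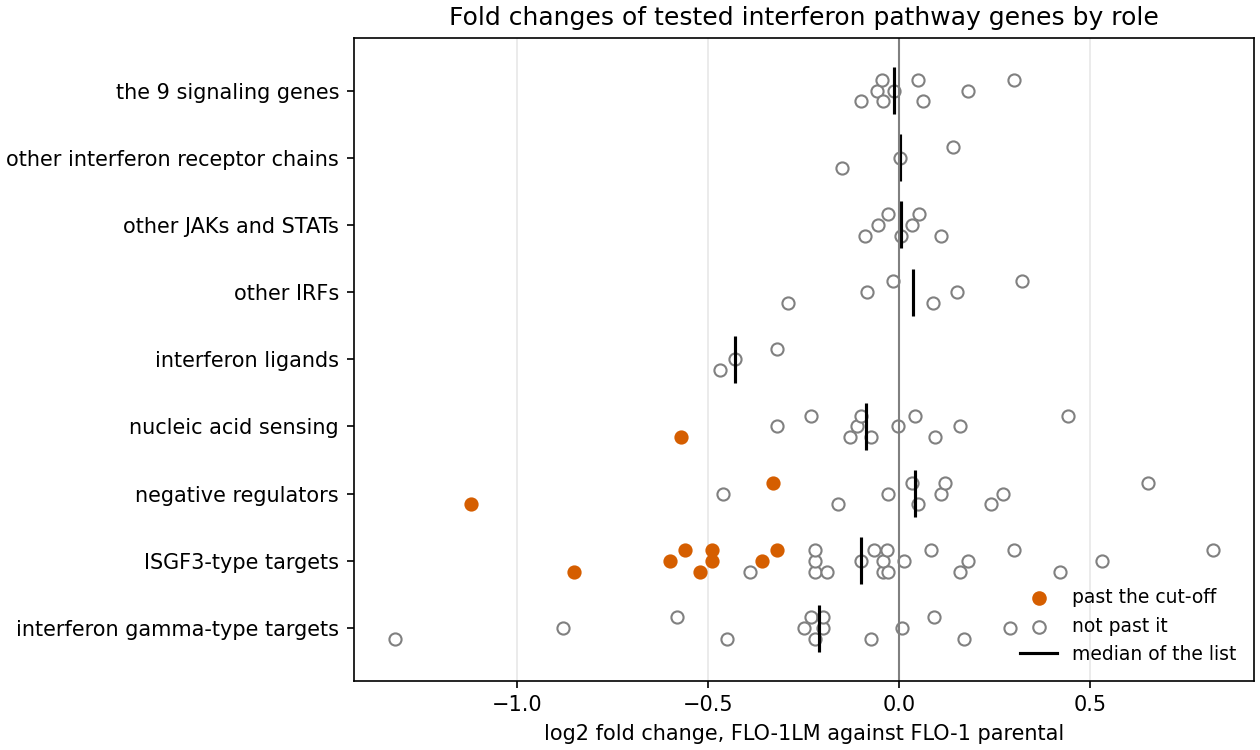
Log2 fold changes of all tested pathway genes by role, FLO-1LM against FLO-1 parental, with one point per gene, filled where the edgeR adjusted p was below 0.05, and a bar at the median of each list. The receptors, JAKs, STATs and IRFs hold no filled point, and the 11 filled points, all to the left of 0, are 8 ISGF3-type targets, 2 negative regulators and 1 sensing gene.

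Among 12 negative regulators of the receptors and kinases, 2 were lower and 0 higher by edgeR. *SOCS1*, which inhibits JAK1 and TYK2 directly, was at 3.99 and 2.68 CPM in FLO-1LM and at 6.89 and 7.61 CPM in parental cells. It fell by 1.12 on the log2 scale (standard error 0.26, edgeR adjusted p = 0.0249), the largest change among the 11 genes, on counts of 69 to 152 per library. Its promoter window held the ISRE core 113 bases before the start (chr16:11256308-11256317 of GRCh38.p14, minus strand), shown in capitals as a regulator of the kinases that fell and chosen after its values were seen.
SOCS1: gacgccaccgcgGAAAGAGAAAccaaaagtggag
*PTPN1*, a phosphatase that acts on JAK2 and TYK2, was at 68.2 and 71.2 CPM in FLO-1LM and at 87.7 and 87.9 CPM in parental cells, a log2 fold change of −0.33 (standard error 0.084, edgeR adjusted p = 0.0433). DESeq2 passed neither *SOCS1* (adjusted p = 0.0853) nor *PTPN1* (adjusted p = 0.0684), and neither passed edgeR without FLO-1 parental replicate 1 or without FLO-1 parental replicate 2. *SOCS3*, which acts on gp130-type receptors and also binds JAKs, was not lower, at 60.3 and 64.9 CPM in FLO-1LM against 53.4 and 52.4 CPM (log2 fold change 0.24, standard error 0.092, edgeR adjusted p = 0.246). *USP18*, which displaces JAK1 from IFNAR2, was at −0.16 on the log2 scale (standard error 0.087, edgeR adjusted p = 0.508).

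Upstream of IRF3 and IRF7, 12 of 13 sensing genes were tested and 1 was lower in FLO-1LM by edgeR, DESeq2 and limma voom alike, with 0 higher. This was *TMEM173*, which encodes STING, the adaptor that passes signals of cytosolic DNA to IRF3. Its level was 38.5 and 35.1 CPM in FLO-1LM and 55.7 and 53.5 CPM in parental cells. The log2 fold change was −0.57 (standard error 0.099, edgeR adjusted p = 0.00295). Without FLO-1 parental replicate 1 it was −0.54 and did not pass (edgeR adjusted p = 0.0952). *DHX58*, which encodes the RIG-I-like receptor LGP2, was close to the cut-off at 66.0 and 64.5 CPM in FLO-1LM against 80.9 and 82.5 CPM (edgeR adjusted p = 0.0534). Of the alternatives that kept all 4 libraries, it passed only with library totals, without the low-count filter and with at least 10 counts in every library. *TBK1*, the kinase that phosphorylates IRF3 and IRF7, was at 84.6 and 79.8 CPM in FLO-1LM and at 68.7 and 78.3 CPM in parental cells (log2 fold change 0.16, standard error 0.09, edgeR adjusted p = 0.511). For *IKBKE*, which encodes the related kinase, only the identifier ENSG00000263528 was looked up, and it was at 0 counts in all 4 libraries. Counts under another identifier of the gene were not looked for, so this 0 does not show that its RNA is absent.

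Downstream, the ISGF3-type targets were the list with the most genes past the cut-off, and also the longest list. Of 28 listed, 27 were tested, and 8 were lower and 0 higher by edgeR, DESeq2 and limma voom. Over all tested genes, 1.83% were lower and 0.402% higher by edgeR. The 8 are named here with their edgeR values. They were *RSAD2* (log2 fold change −0.85), *CMPK2* (−0.60), *ISG20* (−0.56), *OASL* (−0.52), *OAS2* (−0.49), *IFIT2* (−0.49), *IFIT3* (−0.36) and *HERC5* (−0.32). Without FLO-1 parental replicate 1, *CMPK2*, *OAS2*, *IFIT3* and *HERC5* did not pass and the count was 4, and without FLO-1 parental replicate 2 *HERC5* did not pass. *CMPK2* was at −0.89 without FLO-1LM replicate 1 and at −0.35 without FLO-1LM replicate 2. The median of the 27 was −0.10, and 8 of them had a fold change above 0. *RSAD2*, which encodes the antiviral enzyme viperin, was at 85.9 and 84.1 CPM in FLO-1LM and at 160 and 147 CPM in parental cells, with the smallest p of the 11 (standard error 0.08, edgeR adjusted p = 4.08e-06). *MX1*, another classical ISGF3 target, was on the other side at 142 and 129 CPM in FLO-1LM against 111 and 108 CPM. It missed the cut-off (log2 fold change 0.30, standard error 0.081, edgeR adjusted p = 0.0585), but passed it without the low-count filter (edgeR adjusted p = 0.0197). Without FLO-1LM replicate 2 its log2 fold change was 0.37. *CMPK2* and *RSAD2* lie side by side on opposite strands and share 351 exon bases.

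Among the 28 ISGF3-type targets, 17 of 24 with a promoter entry held the ISRE core. The 11 pathway genes past the cut-off held it in 5 of 7 with an entry, and the 19 ISGF3-type targets that were tested and did not pass held it in 12 of 18. One match is shown for *ISG20*, an antiviral exonuclease at 54.9 and 54.5 CPM in FLO-1LM and 81.7 and 79.8 CPM in parental cells, chosen after its values were seen. It lies 69 bases before the start (chr15:88638947-88638956 of GRCh38.p14, plus strand), with the core in capitals.
ISG20: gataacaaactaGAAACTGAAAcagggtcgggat

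**Figure D4:**
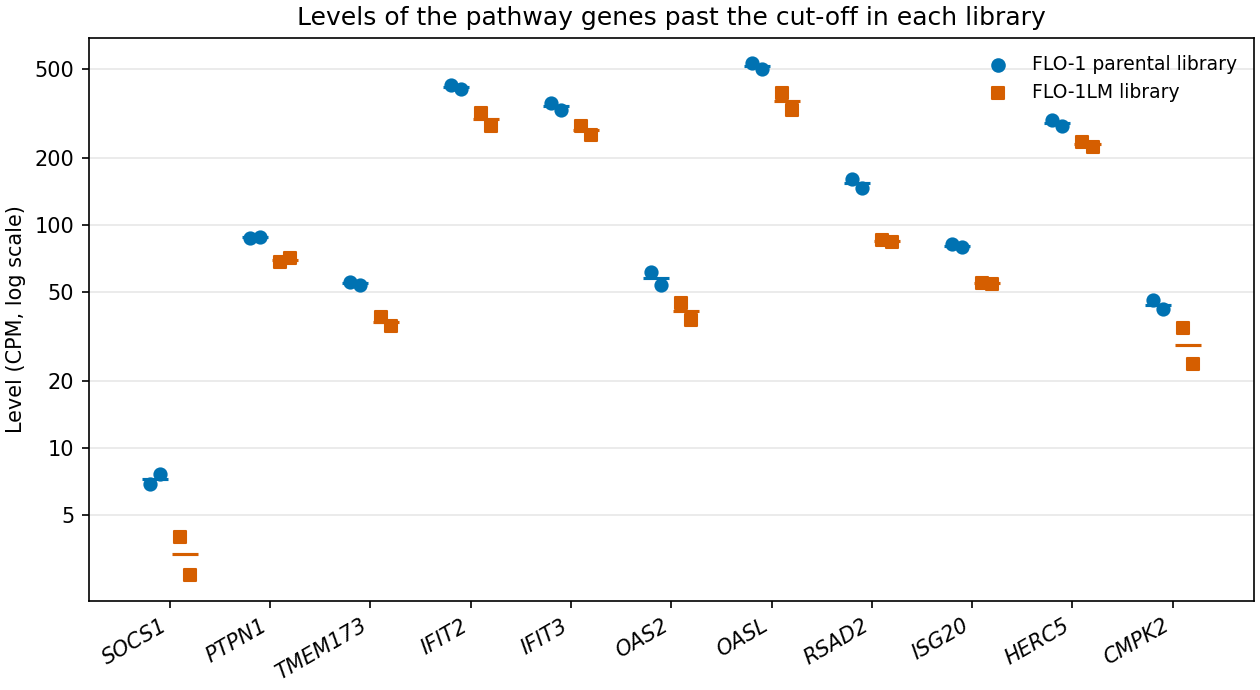
Levels in CPM on a log axis of the 11 pathway genes past the cut-off, with 2 FLO-1 parental libraries (circles) and 2 FLO-1LM libraries (squares) per gene and a bar at the mean of each line. For every gene both FLO-1LM libraries lie below both parental libraries, from *SOCS1* at 2.68 to 7.61 CPM up to *OASL* at 327 to 530 CPM. The genes were picked as different by the test on these same libraries, so this separation largely follows from the choice. Over all tested genes the lines were apart, one way or the other, in 42.6%.

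The list of interferon gamma-type targets, which covers antigen processing and interferon gamma response genes, gave 0 of 14 tested genes past the cut-off by edgeR, DESeq2 or limma voom, with 4 at an unadjusted p below 0.05. Its median log2 fold change was −0.21, over a range from −1.32 to 0.29. *CXCL9* was at 0 counts in all libraries.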

How the data were processed

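The authors trimmed reads of directional cDNA libraries with Trimmomatic 0.30 after base calling with bcl2fastq 2.17, mapped them to GRCh37 with an aligner whose name is not given in the sources used here, and deposited raw counts per gene, one file per library. Whether counting used strand is not stated. From these counts, edgeR 4.0.16 in R 4.3.3 (filterByExpr with a minimum count of 10 in at least 2 libraries, TMM factors, estimateDisp, glmQLFit, glmQLFTest) tested 17143 of 63677 genes, with p-values adjusted over all of them. The study's own test was limma voom, which was run as an alternative (limma 3.58.1), as was DESeq2 1.42.0. Standard errors were taken from the fold change and its F statistic, and intervals use the t distribution with the fit's degrees of freedom. Gene positions are of the Ensembl canonical transcript in a later annotation lifted to GRCh37. The replicate numbers follow the order of accessions and pair nothing. On counts simulated for this comparison over 17143 genes, the fit recovered 91.2% of genes changed by 2 on the log2 scale, 69.7% of those changed by 1 and 50.0% of those changed by 0.5. Depth was 19060310 to 25920336 counts per library. The 9 genes and the other lists were chosen with earlier results of these data known. Named beside the 9 genes were all list genes past the cut-off, genes whose products act directly with them, genes at 0 counts and, of the 3 genes most like the one with the smallest p, the nearest 2. Some items that this rule names are not reported here. *MX1*, *DHX58*, *IFNL1*, *IFNL2*, *IFNL3* and the sequences shown for *SOCS1* and *ISG20* were added after their values were seen.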

Additional observations from a re-analysis of the deposited data

How the results depend on the processing

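Of 11 alternatives, 7 kept all 4 libraries (DESeq2, limma voom, RLE factors, library totals only, no low-count filter, at least 10 counts in every library, and mitochondrial genes left out). In these the 9 genes kept their directions and 0 passed the cut-off. Without the low-count filter, 1 other pathway gene (*MX1*) was higher and 147 genes in all were higher in FLO-1LM. With at least 10 counts in every library, 203 genes in all were lower. In the 4 fits without 1 library, the lone library of a line is assumed to vary like the other line's pair. There 0 to 1 of the 9 genes were higher, the 1 being *IRF7* without FLO-1LM replicate 2. The other pathway genes gave 4 to 19 lower and 0 to 3 higher, and all genes gave 96 to 696 lower and 20 to 356 higher. The log2 fold changes ranged from 0.147 to 0.449 for *IRF7*, −0.107 to 0.020 for *IFNAR1*, −0.125 to 0.007 for *IFNAR2*, −0.039 to 0.010 for *JAK1*, −0.148 to 0.055 for *STAT2* and −0.034 to 0.127 for *IRF3*, so the last 5 changed sign with 1 library left out. The cause was not tested. *RSAD2*, *OASL*, *IFIT2* and *ISG20* passed the cut-off in all 11 alternatives. No paired analysis was possible because the labels give no replicate numbers that the lines share.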
